A study of Mus musculus with 41 samples.

Results

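The genes described here are the double-stranded RNA sensors Ddx58, Ifih1, Dhx58, Tlr3 and Eif2ak2, the mitochondrial adaptor Mavs and the RNA-editing enzyme Adar. They were taken by name, 7 of the 51410 genes in the count tables, and each of the 7 has a row in every table. They were chosen because interferon-stimulated genes are raised in both Caprin1 knockout clones, and the question was whether genes of RNA sensing differ there too. By edgeR, 4 of the 7 genes (Ddx58, Ifih1, Eif2ak2 and Tlr3) were higher than wild type in both knockout clones at every time sampled. Adar was higher in 7 of the 8 clone and time comparisons. Dhx58, on few counts, was higher at 8 h in both clones, and Mavs was higher in clone 2 at 8 h. DESeq2 made none of these calls of Dhx58 and Mavs. It also did not call Tlr3 at 8 h or Adar at 4 h in clone 4. In these 8 comparisons between 9.28% and 31.8% of all genes tested were higher in the clone.

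CAPRIN1 is an RNA-binding protein of the cytoplasm, and the study measured RNA in mouse embryonic stem cells with and without it. Wild-type cells were of the R1 line, and knockout cells came from a pair of Caprin1 knockout lines, clone 2 and clone 4, each of which is 1 clone. All groups, controls included, were kept for 4 days in stem cell medium that lacked LIF and contained 1 µM retinoic acid, and then received 2 µg/ml α-amanitin, which blocks transcription by RNA polymerase II, for 0, 2, 4 or 8 h. RNA-seq gave 4 wild-type libraries at each time, 2 of clone 2 at each time, and 2 of clone 4 at 2, 4 and 8 h but 1 at 0 h, which is 31 libraries in all. Nothing in the labels says that replicates came from separate cultures, so p-values measure only the spread between these libraries, which may be technical.

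Totals ranged from 3.46 to 31.6 M counts per library (M, mega-counts), and the 0 h libraries were the deepest, with a mean of 18.7 ± 8.74 M (SD, n = 7). Caprin1 itself had 990 ± 106 counts-per-million (CPM; SD, n = 16) in wild type and 140 ± 34.8 CPM (SD, n = 8) in clone 2, but 1078 ± 98.2 CPM (SD, n = 7) in the libraries labelled clone 4. The label of clone 4 is therefore not borne out by its Caprin1 RNA, and the labels do not say which edit it carries. Every direction given below for clone 4 is for the libraries labelled clone 4. Wild-type replicates 1 and 2 stood apart from replicates 3 and 4 at 0 and 8 h, and replicate 1 stood apart from the other 3 at 4 h.

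Double-stranded RNA in the cytoplasm marks infection, or RNA of the cell's own that has escaped editing or decay. RIG-I (Ddx58, also named Rigi) and MDA5 (Ifih1) bind it, with LGP2 (Dhx58) as a relative that lacks signalling domains, and signal through MAVS on mitochondria to the kinases TBK1 and IKK epsilon and the transcription factors IRF3 and IRF7, which switch on type I interferon genes. TLR3 senses double-stranded RNA in endosomes, PKR (Eif2ak2) phosphorylates eIF2 alpha and stops translation, and ADAR changes adenosine to inosine in double-stranded RNA so that MDA5 and PKR do not respond to it. Most genes of this set are themselves interferon-stimulated, whereas Mavs is regarded as mostly constitutive, and mouse embryonic stem cells are known for a weak interferon response that grows with differentiation.

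Interferon acts on many such genes through the interferon-stimulated response element, whose core was searched as GAAANNGAAA on both strands in the promoter windows of RefSeq (build GRCm38.p6), which run from 250 bases before to 50 bases after each start site. Windows were present for 6 of the 7 genes, 8 windows in all, 3 of them of Adar. The core matched in the windows of 3 genes (Ddx58, Ifih1 and Eif2ak2) and in 3.44% of all 32851 windows. The 3 matching windows are given because they hold the core, and that of Mavs, which does not, is given for contrast. Each is written 5′ to 3′ on the strand of the gene, with the matched core in capitals.
Ddx58 (chr4:40239776-40240075, minus strand): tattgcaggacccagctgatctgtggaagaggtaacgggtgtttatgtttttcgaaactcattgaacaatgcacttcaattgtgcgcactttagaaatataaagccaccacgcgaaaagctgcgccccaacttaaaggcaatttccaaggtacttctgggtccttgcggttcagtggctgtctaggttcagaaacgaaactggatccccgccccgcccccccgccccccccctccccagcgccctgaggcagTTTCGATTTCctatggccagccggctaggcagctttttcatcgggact
Ifih1 (chr2:62646206-62646505, minus strand): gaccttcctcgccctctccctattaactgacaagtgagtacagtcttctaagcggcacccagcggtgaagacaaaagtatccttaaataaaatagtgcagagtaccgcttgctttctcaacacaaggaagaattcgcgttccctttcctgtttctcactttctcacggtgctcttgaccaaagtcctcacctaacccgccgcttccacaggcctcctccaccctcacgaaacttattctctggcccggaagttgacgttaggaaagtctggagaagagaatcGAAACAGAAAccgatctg
Eif2ak2 (chr17:78882523-78882822, minus strand): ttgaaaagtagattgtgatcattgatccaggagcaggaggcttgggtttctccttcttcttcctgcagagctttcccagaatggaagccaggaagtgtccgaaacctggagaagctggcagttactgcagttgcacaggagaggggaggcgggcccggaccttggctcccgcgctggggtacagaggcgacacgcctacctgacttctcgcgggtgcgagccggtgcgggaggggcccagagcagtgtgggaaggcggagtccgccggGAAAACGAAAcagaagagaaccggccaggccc
Mavs (chr2:131233813-131234112, plus strand): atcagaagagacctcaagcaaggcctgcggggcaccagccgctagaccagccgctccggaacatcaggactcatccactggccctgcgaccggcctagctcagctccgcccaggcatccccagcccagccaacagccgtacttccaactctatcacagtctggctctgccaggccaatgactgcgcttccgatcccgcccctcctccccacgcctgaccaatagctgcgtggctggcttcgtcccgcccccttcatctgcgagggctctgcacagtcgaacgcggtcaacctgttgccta

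All 3 matches lie just past the start site: bases 3 to 12 in Ddx58, on the strand opposite to the gene, bases 33 to 42 in Ifih1 and bases 19 to 28 in Eif2ak2. Neither Tlr3, which was also higher in both clones, nor the 3 windows of Adar held the core. A core of the gamma-activated site, TTCNNNGAA, which was searched the same way and is present in 8.3% of all windows, matched in Eif2ak2 at bases -178 to -170 and in the third window of Adar at bases 23 to 31. A match describes letters and not a bound site, and the absence of one says only that these letters are not in that window.

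**Figure D1:**
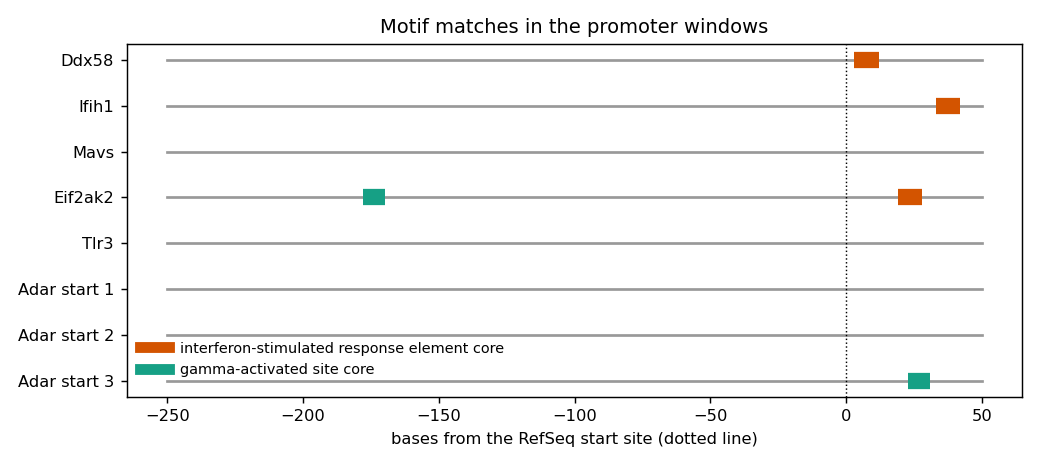
Promoter windows of the 6 genes with a RefSeq entry, drawn as grey lines from 250 bases before to 50 bases after the start site (dotted line; horizontal axis in bases). Orange blocks are matches to the interferon-stimulated response element core, which lie between base 3 and base 42 in Ddx58, Ifih1 and Eif2ak2, and green blocks are matches to the gamma-activated site core in Eif2ak2 and in the third window of Adar.

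By level, Eif2ak2 led the set. Per kilobase of the gene length given in the count tables, its wild-type mean was 7.41 ± 0.877 CPM per kb (SD, n = 16). Mavs with 1.89 ± 0.599 and Adar with 1.81 ± 0.271 CPM per kb followed, and these SDs span the 4 times. In wild type Adar lay above Mavs at 4 h (1.49 to 1.68 against 1.13 to 1.43 CPM per kb). At 8 h Adar lay below Mavs (2.02 to 2.20 against 2.38 to 3.01 CPM per kb). Ddx58 had 0.968 ± 0.217 CPM per kb. The lowest 3, Dhx58 with 0.169 ± 0.0643, Ifih1 with 0.113 ± 0.0448 and Tlr3 with 0.109 ± 0.0309 CPM per kb, overlapped. Ddx58 stood below Mavs in wild type but above it in the means of both clones. Ddx58 had 2.69 ± 0.561 CPM per kb in clone 2 (n = 8) and 2.68 ± 0.587 in clone 4 (n = 7). Mavs had 2.20 ± 0.856 and 1.96 ± 0.734 there, and these spreads, which span the 4 times, overlap. In clone 4 Ddx58 lay above Mavs at 2 h (3.24 and 3.06 against 1.52 and 1.65 CPM per kb). At 8 h it lay below Mavs there (2.23 and 1.95 against 2.97 and 2.77 CPM per kb). Ifih1 rose to 0.424 ± 0.0889 CPM per kb in clone 2 and 0.788 ± 0.114 in clone 4, above Tlr3 (0.263 ± 0.0343 and 0.240 ± 0.0354) and Dhx58 (0.240 ± 0.0619 and 0.300 ± 0.0570) there. What the deposited length spans is not given in the sources used here.

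**Figure D2:**
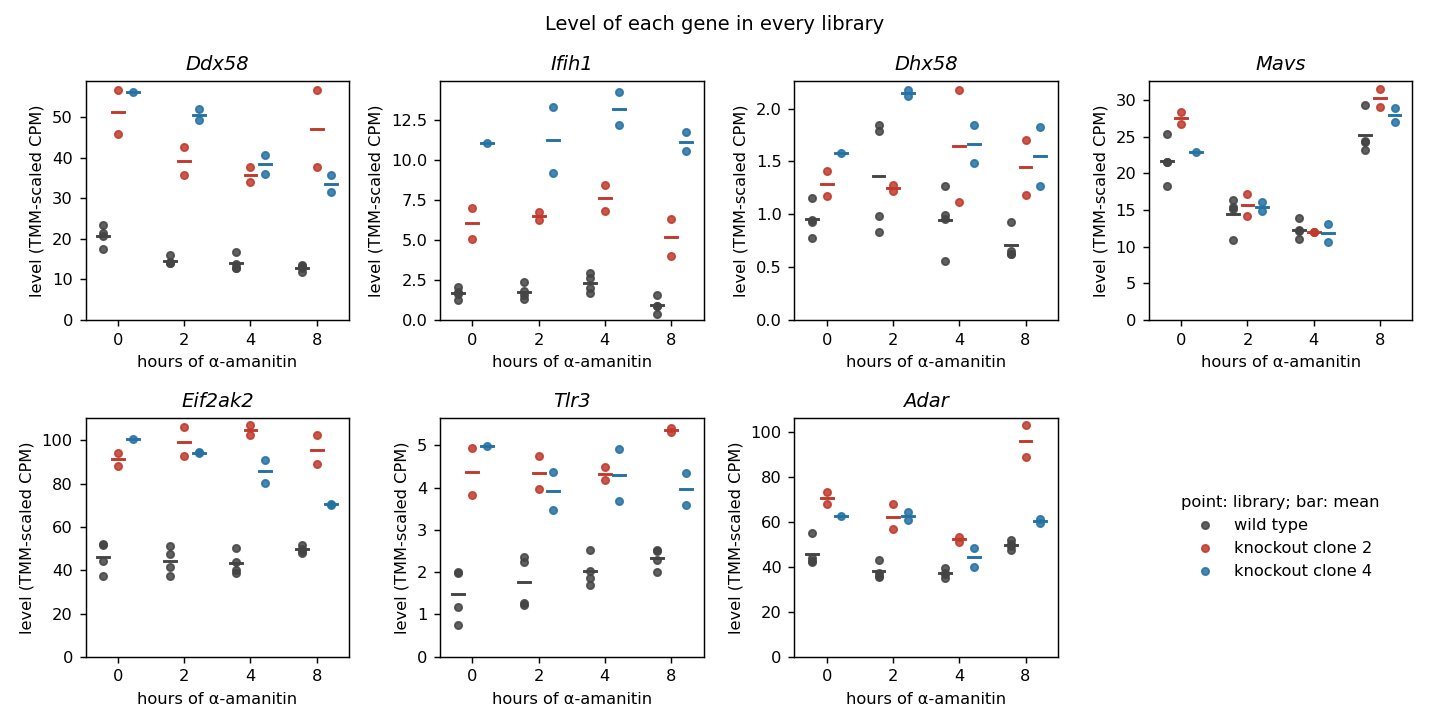
Level of each of the 7 genes in every library, in CPM scaled by TMM (vertical axis, from 0), against hours of α-amanitin; points are libraries and bars are means of a line at a time. The knockout points of Ddx58, Ifih1, Eif2ak2 and Tlr3 lie above all wild-type points at each time, while those of Mavs overlap with them at each time.

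With both clones pooled as knockout, 5 of the 7 genes passed the test as higher than wild type at 0 h, where 13.9% of all genes tested did (edgeR, false discovery rate (FDR) under 0.05). The same 5 genes, Ddx58, Ifih1, Eif2ak2, Tlr3 and Adar, passed at 2 h (17.0% of all genes), 4 h (19.4%) and 8 h (10.3%). The median log2 difference of the tested members was 1.02, 1.13, 1.11 and 0.89 at the 4 times, against medians over all genes between -0.0016 and 0.0088; here and below a log2 difference of 1 is a ratio of 2. No tested member was called lower in edgeR, nor at an unadjusted p under 0.05, where 12.2%, 14.6%, 16.9% and 7.06% of all genes were called lower. Dhx58 had too few counts to be tested in this fit at 8 h. The call of Adar was lost at 0 h without replicate 1 or 2 of clone 2 (FDR = 0.0551 and 0.0693) and at 4 h without replicate 2 of clone 2 or wild-type replicate 1 or 3 (FDR = 0.0537, 0.0664 and 0.0620). At 8 h Tlr3 lost its call without wild-type replicate 2 (FDR = 0.0513), and Adar lost its call without any one of 6 libraries (each wild-type library and each library of clone 2, FDR between 0.0585 and 0.105) or without the filter on low counts (FDR = 0.0637). With only wild-type replicates 3 and 4, none of the 7 was called in edgeR at 0 h, where 12 of 15892 genes passed and 4457 had an unadjusted p under 0.05. With either wild-type pair alone none was called in edgeR at 8 h, where 0 and 1 of all genes passed and 2654 and 2420 had an unadjusted p under 0.05. The comparisons of each clone, in which the spread between the clones does not enter the error, are given for each gene below.

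Clone 2 alone had 5, 5, 5 and 7 genes of the set higher at 0, 2, 4 and 8 h, where 22.9%, 31.8%, 31.1% and 31.7% of all genes were. Clone 4 had 4, 5, 5 and 6, where 9.28%, 21.7%, 24.6% and 20.4% were. The counts at 8 h include Dhx58, which passed the low-count filter in this fit with 3 groups but not in the pooled one. No member was lower in either clone at any time, in edgeR or at an unadjusted p under 0.05. Of all genes, 22.3%, 30.0%, 30.8% and 31.8% were lower in clone 2 at 0, 2, 4 and 8 h, and 6.60%, 19.6%, 22.5% and 17.1% in clone 4. With either wild-type pair alone, Ddx58, Ifih1, Eif2ak2, Tlr3 and Adar were each called in both clones at 0 and at 8 h. In bulk RNA, more RNA per cell and more cells of a type that carries it cannot be told apart.

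**Figure D3:**
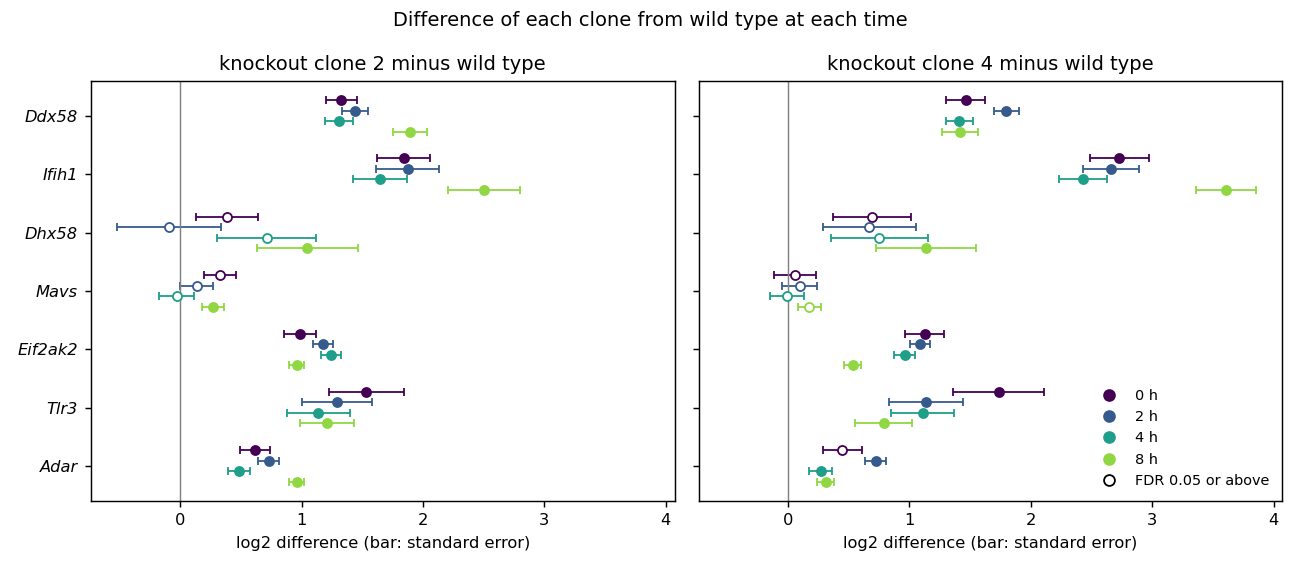
Log2 difference from wild type (horizontal axis) of each gene in clone 2 (left) and clone 4 (right) at 0, 2, 4 and 8 h, with bars of 1 standard error; filled points passed FDR under 0.05 and open points did not. Ifih1 has the largest differences in both panels, up to 2.50 in clone 2 and 3.61 in clone 4 at 8 h, and Mavs lies between -0.029 and 0.33 in both.

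Ddx58 (ENSMUSG00000040296.15, chr4:40203777-40239825) encodes RIG-I, which binds RNA with a 5′ triphosphate. At 0 h its level was 23.5, 17.5, 21.3 and 20.7 CPM in the wild-type libraries, 45.8 and 56.6 CPM in clone 2 and 56.2 CPM in clone 4. After α-amanitin it lay between 11.9 and 16.7 CPM in all wild-type libraries at 2, 4 and 8 h, and between 31.4 and 56.6 CPM in all knockout libraries. The groups did not overlap at any time. All knockout libraries lay above all wild-type libraries for 18.4%, 17.7%, 20.1% and 13.7% of all genes at 0, 2, 4 and 8 h. The log2 difference from wild type in clone 2 was 1.33 ± 0.13 (SE), 1.44 ± 0.11, 1.31 ± 0.12 and 1.89 ± 0.14 at 0, 2, 4 and 8 h, and in clone 4 it was 1.46 ± 0.16, 1.80 ± 0.10, 1.41 ± 0.11 and 1.41 ± 0.15. The largest of the 8 FDR values was 0.000158, and no left-out library ended a call.

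Ifih1 (ENSMUSG00000026896.14, chr2:62595618-62646255) encodes MDA5, the sensor of long double-stranded RNA. It was scarce in wild type, with 0.377 to 2.97 CPM (median 1.67, 16 libraries), from 3 to 44 counts. In clone 2 it stood at 5.05 and 7.04 CPM at 0 h, 6.27 and 6.76 at 2 h, 8.44 and 6.83 at 4 h and 4.02 and 6.32 at 8 h. In clone 4 it stood at 11.1 CPM at 0 h, 13.4 and 9.23 at 2 h, 12.2 and 14.3 at 4 h and 10.6 and 11.8 at 8 h. Its 3 lines formed separate tiers: every clone 2 library lay above every wild-type library, and every clone 4 library lay above every clone 2 library. How many of all genes form such tiers was not counted. The log2 difference from wild type was 1.84 ± 0.22 (SE), 1.87 ± 0.26, 1.64 ± 0.22 and 2.50 ± 0.30 in clone 2, and 2.73 ± 0.24, 2.66 ± 0.23, 2.43 ± 0.20 and 3.61 ± 0.25 in clone 4, with 4.90e-05 the largest FDR, and no left-out library ended a call. RefSeq places the predicted gene Gm39839 across part of the Ifih1 locus, and the strand setting of the counting is not given.

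Dhx58 (ENSMUSG00000017830.15, chr11:100694884-100704271) encodes LGP2, which modulates the other RIG-I-like receptors, and overlaps the predicted gene Gm38483 in RefSeq. Its counts were low throughout, from 2 to 28 in wild-type libraries and from 8 to 36 in knockout libraries. At 8 h it stood at 0.932, 0.628, 0.626 and 0.653 CPM in wild type, 1.18 and 1.71 CPM in clone 2 and 1.27 and 1.83 CPM in clone 4, with no overlap. At 8 h it passed the low-count filter in the fit with 3 groups but not in that with both clones pooled. Wild-type libraries held 5 to 7 counts there and knockout libraries 10 to 17, so it entered through the knockout libraries, where it was higher. In that fit it passed the test in clone 2 (log2 difference 1.05 ± 0.42, FDR = 0.0269) and in clone 4 (1.14 ± 0.41, FDR = 0.0267). Without replicate 2 of clone 2 the first call was lost (FDR = 0.310), and the second was lost without replicate 2 of clone 4 (FDR = 0.290) and without wild-type replicate 2, 3 or 4 (FDR = 0.0521, 0.0509 and 0.0527). DESeq2 called neither (FDR = 0.183 in each). Neither was called by edgeR without the filter on low counts (FDR = 0.0529 and 0.0591) or with wild-type replicates 1 and 2 only (FDR = 0.109 and 0.123). At 0, 2 and 4 h its log2 differences were 0.38 ± 0.26, -0.093 ± 0.43 and 0.71 ± 0.41 in clone 2 and 0.69 ± 0.32, 0.67 ± 0.38 and 0.75 ± 0.40 in clone 4, and none passed in edgeR (0 of these 6 at an unadjusted p under 0.05).

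Mavs (ENSMUSG00000037523.13, chr2:131234063-131248025) encodes the adaptor shared by RIG-I and MDA5. At 0 h it had 18.2, 25.4, 21.6 and 21.5 CPM in wild type, 26.7 and 28.4 CPM in clone 2 and 22.9 CPM in clone 4. At 4 h it had 12.1, 13.96, 12.3 and 11.03 CPM in wild type, 12.02 and 11.98 CPM in clone 2 and 13.1 and 10.7 CPM in clone 4, so that the lines overlapped. It was called in 1 of the 8 comparisons, in clone 2 at 8 h (log2 difference 0.27 ± 0.09, FDR = 0.0120). That call was lost without replicate 1 of clone 2 (FDR = 0.131), with DESeq2 (FDR = 0.0915), in the joint fit of all times (FDR = 0.0616) and with wild-type replicates 1 and 2 only (FDR = 0.153). The remaining log2 differences ran from -0.029 to 0.33 in clone 2 and from -0.0072 to 0.18 in clone 4. In clone 2 at 0 h the difference of 0.33 ± 0.13 had an FDR of 0.0661, and it passed without wild-type replicate 2 (0.41, FDR = 0.00959). It also passed in the joint fit (0.31, FDR = 0.0131) and without the filter on low counts (0.36, FDR = 0.0412). With wild-type replicates 3 and 4 only it passed too (0.36, FDR = 0.000194). It did not pass with DESeq2, RLE scaling or wild-type replicates 1 and 2 only. In clone 4 at 8 h 0.18 ± 0.10 became 0.25 (FDR = 0.0477) without wild-type replicate 2.

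Tlr3 (ENSMUSG00000031639.12, chr8:45395665-45411075) encodes the endosomal receptor for double-stranded RNA, which signals through TICAM1 and not through MAVS. Wild-type libraries had 0.745 to 2.53 CPM (median 2.01, 16 libraries), from 5 to 49 counts. Clone 2 had 3.81 and 4.93 CPM at 0 h, 3.96 and 4.74 at 2 h, 4.48 and 4.18 at 4 h and 5.32 and 5.42 at 8 h, and clone 4 had 4.98 CPM at 0 h, 4.36 and 3.48 at 2 h, 3.69 and 4.90 at 4 h and 3.59 and 4.34 at 8 h. All 15 knockout libraries lay above all 16 wild-type libraries. Within single times this held for 13.7% to 20.1% of all genes, and the share over all times was not computed. The log2 difference was 1.53 ± 0.31 (SE), 1.29 ± 0.29, 1.14 ± 0.26 and 1.21 ± 0.22 in clone 2 and 1.74 ± 0.38, 1.14 ± 0.31, 1.11 ± 0.26 and 0.79 ± 0.24 in clone 4, with FDR values up to 0.0114. Without replicate 1 of clone 4 the call at 2 h was lost (0.96, FDR = 0.0731), and without replicate 2 of clone 4 the call at 8 h was lost (0.64, FDR = 0.116), as it was with DESeq2 (0.79, FDR = 0.0926).

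Eif2ak2 (ENSMUSG00000024079.4, chr17:78850504-78882572) encodes PKR. Its level was 37.2 to 52.0 CPM in wild type (median 47.8, 16 libraries), 88.1 to 107 CPM in clone 2 (median 98.4, 8 libraries) and 70.3 to 101 CPM in clone 4 (median 91.1, 7 libraries). No knockout library came as low as any wild-type library, and how many of all genes share this over all times was not counted. The log2 difference was 0.98 ± 0.13 (SE), 1.17 ± 0.08, 1.24 ± 0.08 and 0.96 ± 0.06 in clone 2 and 1.13 ± 0.16, 1.09 ± 0.08, 0.96 ± 0.09 and 0.53 ± 0.07 in clone 4, with FDR values up to 0.00118. All 8 calls held without each library in turn. The locus overlaps the predicted genes Gm6548 and Gm26637 in RefSeq.

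Adar (ENSMUSG00000027951.16, chr3:89714469-89753455) encodes the editing enzyme, and where called it was higher by 0.27 to 0.96 on the log2 scale. Wild-type libraries at 0 h had 42.4, 54.9, 44.1 and 42.0 CPM, clone 2 had 67.8 and 73.1 CPM and clone 4 had 62.8 CPM. At 4 h wild type had 35.2, 39.7, 36.7 and 37.2 CPM, clone 2 had 51.2 and 53.2 CPM, and clone 4 had 48.6 and 39.8 CPM, the lower of which was next to the highest wild-type library. At 8 h wild type had 47.5, 51.8, 49.98 and 49.4 CPM, clone 4 had 59.6 and 61.1 CPM, and clone 2 had 88.8 and 103 CPM. The knockout groups lay above wild type without overlap at each of the 4 times. The log2 difference in clone 2 was 0.61 ± 0.13 (SE), 0.73 ± 0.09, 0.48 ± 0.09 and 0.96 ± 0.06, all called, with FDR values up to 0.00225. In clone 4 it was 0.45 ± 0.16 at 0 h, where 1 library stands for the clone (FDR = 0.0832), and then 0.72 ± 0.09, 0.27 ± 0.09 and 0.31 ± 0.07 (FDR up to 0.0181). The 0 h value of clone 4 passed without wild-type replicate 2 (0.56, FDR = 0.00920), and the 4 h value did not pass without replicate 1 of clone 4 (0.11, FDR = 0.518) or with DESeq2 (FDR = 0.0868). Gene counts do not separate the interferon-inducible long form of ADAR from the constitutive short form, and Adar overlaps Chrnb2 in RefSeq.

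The clones were also compared with each other. Of the 7 genes, 1, 2, 2 and 4 differed between clone 4 and clone 2 at 0, 2, 4 and 8 h (edgeR, FDR under 0.05), where 23.9%, 48.7%, 47.6% and 58.4% of all genes did. Ifih1 was the member called at all 4 times, higher in clone 4 by 0.89 ± 0.25 (log2, SE; FDR = 0.0252), 0.79 ± 0.21 (FDR = 0.00154), 0.79 ± 0.19 (FDR = 0.000882) and 1.10 ± 0.20 (FDR = 1.03e-05). Without replicate 1 of clone 2 the difference at 0 h was 0.66 (FDR = 0.209), and without replicate 1 of clone 4 that at 2 h was 0.49 (FDR = 0.149). DESeq2 did not call Ifih1 at 0 h (FDR = 0.104) or 2 h (FDR = 0.0651). Eif2ak2 was lower in clone 4 at 4 h (-0.28 ± 0.09, FDR = 0.0152) and at 8 h (-0.43 ± 0.07, FDR = 1.59e-06), and the 4 h call was lost without replicate 2 of clone 2 (FDR = 0.118) or replicate 1 of clone 4 (FDR = 0.232), and with DESeq2 (FDR = 0.0608). Adar was lower in clone 4 at 8 h, by -0.65 ± 0.07 (FDR = 2.07e-10). Ddx58 was higher in clone 4 at 2 h (0.36 ± 0.10, FDR = 0.00337) and lower at 8 h (-0.48 ± 0.14, FDR = 0.00648). Both Ddx58 calls were lost without replicate 2 of clone 2 (FDR = 0.142 and 0.323), and also without replicate 1 of clone 4 at 2 h (FDR = 0.0524) and replicate 2 of clone 4 at 8 h (FDR = 0.0828). For Tlr3, Dhx58 and Mavs no difference between the clones passed; for Tlr3 at 8 h it was -0.42 ± 0.23 (FDR = 0.109).

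Over α-amanitin, CPM gives each RNA relative to the RNA that remains, so a gene that holds its CPM need not hold its amount. From 0 to 8 h in wild type, 3 of the 7 genes changed, where 51.1% of all genes did: Ddx58 fell by 0.66 ± 0.12 on the log2 scale (FDR = 2.69e-05), Ifih1 changed by -0.84 ± 0.32 (FDR = 0.0258) and Tlr3 by 0.64 ± 0.25 (FDR = 0.0349). The Tlr3 call was lost without wild-type 0 h replicate 2 (0.29, FDR = 0.311) or 8 h replicate 1, 3 or 4 (FDR up to 0.0781), with DESeq2 (FDR = 0.0825) and without the filter on low counts (FDR = 0.0770). The Ifih1 call was lost without 0 h replicate 3 or 4 or 8 h replicate 2, 3 or 4 (FDR between 0.0551 and 0.131). In clone 2, 1 gene changed, where 28.4% of all did: Adar rose by 0.45 ± 0.10 (FDR = 0.00105), and this was lost without 8 h replicate 2 (0.34, FDR = 0.0610). In clone 4, 2 genes changed, where 19.5% of all did: Ddx58 fell by 0.74 ± 0.16 (FDR = 0.000887) and Eif2ak2 by 0.52 ± 0.15 (FDR = 0.0115), the latter not called without either 8 h replicate (FDR = 0.0534 and 0.0533).

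**Figure D4:**
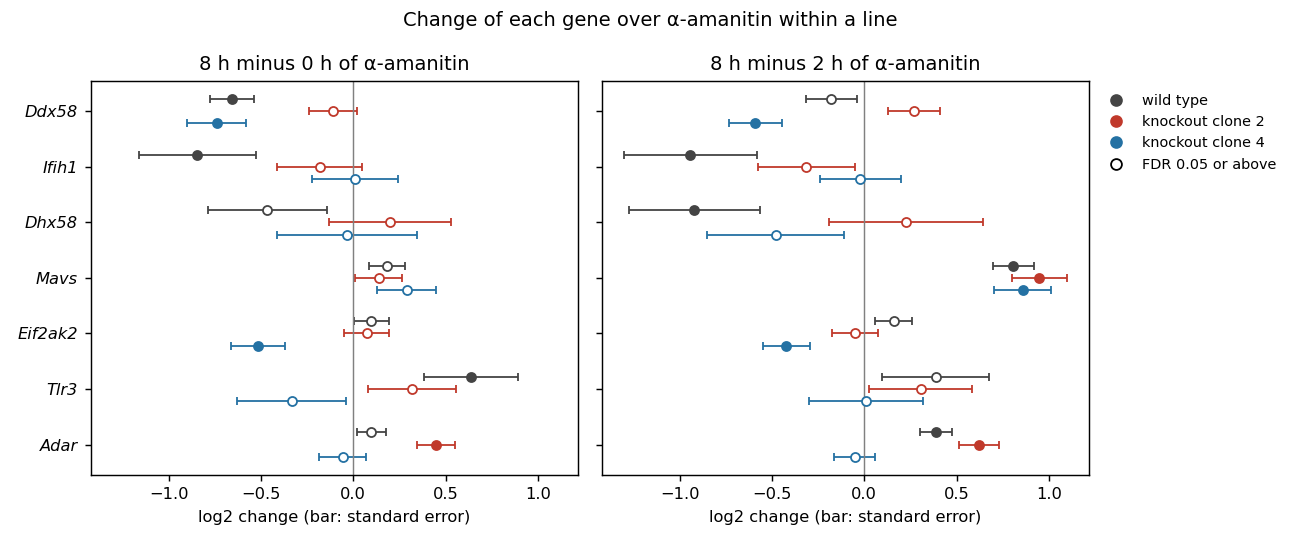
Log2 change of each gene within a line from 0 to 8 h (left) and from 2 to 8 h (right) of α-amanitin, with bars of 1 standard error; filled points passed FDR under 0.05 and open points did not. Mavs rises from 2 to 8 h in all 3 lines, and Ddx58 falls from 0 to 8 h in wild type and clone 4 while clone 2 lies near 0.

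Between 2 and 8 h, when the drug was present throughout, Mavs rose in all 3 lines, by 0.81 ± 0.11 (log2, SE) in wild type, 0.95 ± 0.15 in clone 2 and 0.86 ± 0.15 in clone 4, with FDR values up to 9.07e-05. Adar rose in wild type (0.39 ± 0.09, FDR = 0.000391) and in clone 2 (0.62 ± 0.11, FDR = 4.19e-05), and in clone 4 its change was -0.052 ± 0.11. The levels of both genes were lower at 2 and 4 h than at 0 and 8 h in wild type, with Mavs at 10.9 to 16.4 CPM in the 2 and 4 h libraries against 18.2 to 29.3 CPM at 0 and 8 h. Ddx58 (-0.59 ± 0.14, FDR = 0.00305) and Eif2ak2 (-0.42 ± 0.13, FDR = 0.0187) fell in clone 4, and the first was lost without 8 h replicate 2 (FDR = 0.0612) and the second without any one of the 4 libraries (FDR between 0.0781 and 0.0966). In wild type Ifih1 (-0.94 ± 0.36, FDR = 0.0338) and Dhx58 (-0.92 ± 0.35, FDR = 0.0344) fell, each on few counts. The Ifih1 call was lost without 2 h replicate 2 or 4 or 8 h replicate 2, 3 or 4 (FDR up to 0.133). The Dhx58 call was lost without 2 h replicate 1 or 3 or 8 h replicate 2, 3 or 4 (FDR up to 0.141), with DESeq2 (FDR = 0.0885) and without the filter on low counts (FDR = 0.103). In all, 4 genes were called in wild type, 2 in clone 2 and 3 in clone 4, where 42.5%, 25.8% and 20.4% of all genes were.

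The difference between a clone's change over 8 h and that of wild type was tested directly. In clone 2 edgeR and DESeq2 called 0 of the 7 genes (7.42% of all genes with edgeR). By edgeR's unadjusted values 2 were under 0.05, Ddx58 (0.55 ± 0.18, FDR = 0.0525) and Adar (0.35 ± 0.13, FDR = 0.0945). In clone 4, 1 gene was called, where 4.09% of all were: the change of Eif2ak2 differed from that in wild type by -0.61 ± 0.17 (FDR = 0.0431). That call was lost without wild-type 0 h replicate 1, any one of the 4 wild-type libraries at 8 h or either 8 h replicate of clone 4, with FDR values from 0.0586 to 0.122. Tlr3 (-0.97 ± 0.39, FDR = 0.139) and Ifih1 (0.85 ± 0.40, FDR = 0.205) had larger differences in clone 4 and unadjusted p-values under 0.05, but did not pass in edgeR.

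Around the 7 genes, most of the other RNA sensors tested were higher in both clones. The list of 2′-5′-oligoadenylate synthetases (OAS enzymes, which bind double-stranded RNA) and ZBP1 holds 9 genes, of which 9 of 9, 7 of 7, 8 of 8 and 8 of 8 tested were higher in clone 2 at 0, 2, 4 and 8 h, and 7 of 9, 6 of 7, 6 of 8 and 6 of 8 in clone 4. Over the same times 22.9% to 31.8% of all genes were higher in clone 2 and 9.28% to 24.6% in clone 4. The median log2 difference of the list ran from 2.33 to 3.95 in clone 2 and from 2.19 to 2.84 in clone 4. Zbp1, a sensor of Z-form RNA, had 15 counts over all wild-type libraries, 69 over clone 2 and 50 over clone 4. At 0 h, where all 9 genes were tested, Zbp1 entered the test through the knockout libraries, where its level was higher. Oas1a, Oas1b, Oas2, Oasl1 and Oasl2 were called in both clones at 2, 4 and 8 h, and Oas2 had differences of 4.05 to 4.63 in clone 2 and 2.48 to 3.24 in clone 4.

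Among 28 cofactors, adaptors, kinases and transcription factors of RIG-I-like receptor signalling, 13, 15, 12 and 15 were higher and 4, 7, 6 and 6 lower in clone 2 at 0, 2, 4 and 8 h. The lower ones were at each time a smaller share than the 22.3%, 30.0%, 30.8% and 31.8% over all genes. In clone 4, 5, 7, 7 and 7 were higher and 2, 4, 3 and 3 lower, and at 2, 4 and 8 h its higher counts lay near the background shares given above. Trim25, the ubiquitin ligase of RIG-I, did not overlap between the 3 lines, and the share of all genes that do so was not computed. It had 132 ± 8.67 CPM (SD, n = 16) in wild type, 367 ± 39.1 CPM (n = 8) in clone 2 and 205 ± 21.7 CPM (n = 7) in clone 4. Irf7 had 1.49 ± 0.660, 4.86 ± 0.988 and 6.74 ± 1.20 CPM in the same order, and Ikbke, which encodes IKK epsilon, was higher by 1.22 to 1.91 (log2) in clone 2 and 0.58 to 1.01 in clone 4 at 2, 4 and 8 h. Ripk1 was also higher in both clones at these times, and Zcchc3, a cofactor of RIG-I and MDA5, was lower, by -1.09 to -0.72 in clone 2 and -0.79 to -0.46 in clone 4. The transcription factor Irf3, which needs no induction, had 27.1 ± 5.01 CPM in wild type, 33.4 ± 9.43 in clone 2 and 26.4 ± 5.07 in clone 4. The kinase Tbk1 had 58.3 ± 9.52, 81.6 ± 14.1 and 69.9 ± 12.4 CPM, with SDs that span the 4 times. By edgeR Irf3 was higher in clone 2 at 0 h (log2 0.30, FDR = 0.0439) and 8 h (0.51, FDR = 1.00e-06). It was not called in clone 4 at 2, 4 or 8 h. Tbk1 was higher in clone 2 at every time (log2 0.46 to 0.50) and in clone 4 at 2 and 4 h (0.25 and 0.28).

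**Figure D5:**
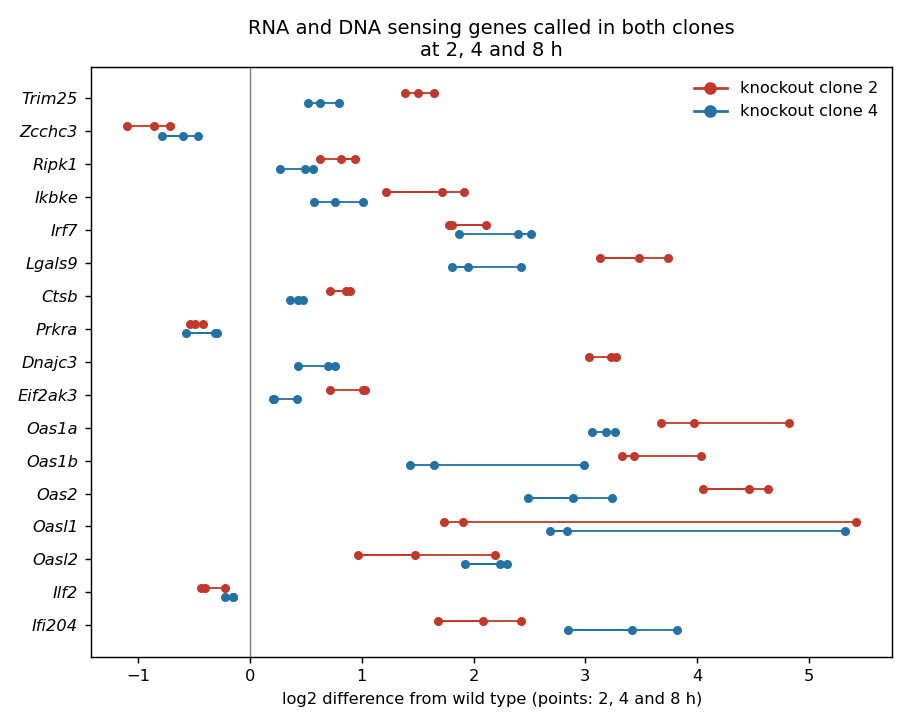
Log2 difference from wild type (horizontal axis) at 2, 4 and 8 h, as 3 points joined by a line, for genes of the RNA and DNA sensing lists that were called in the same direction in both clones at these times. Genes of the OAS list reach the highest values, and Zcchc3, Prkra and Ilf2 lie below 0 in both clones.

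The remaining lists had members in both directions or few members called. Of all genes tested, 22.9% to 31.8% were higher in clone 2 over the 4 times and 9.28% to 24.6% in clone 4. A count below that is near these shares is no result about its list. Of 16 inhibitors of RIG-I-like receptor signalling, 3 to 4 were higher and 2 to 5 lower in clone 2 over the 4 times, where 22.3% to 31.8% of all genes were lower. Lgals9, which encodes galectin-9, was the 1 member higher in both clones at 2, 4 and 8 h (3.13 to 3.73 in clone 2, 1.81 to 2.42 in clone 4). Of 7 genes of TLR3 trafficking and signalling, 2 to 3 were higher in clone 2 and 1 to 3 in clone 4, and Ctsb, an endosomal protease, was higher in both. Of 10 PKR regulators and eIF2 alpha genes, Dnajc3, an inhibitor of PKR, was higher by 3.03 to 3.28 in clone 2 and 0.43 to 0.76 in clone 4. Eif2ak3, which encodes the eIF2 alpha kinase PERK, was higher by 0.71 to 1.03 and 0.20 to 0.42, and Prkra, which encodes the PKR activator PACT, was lower by -0.53 to -0.42 and -0.57 to -0.29. Of 15 genes for double-stranded RNA editing, binding and processing, 3 of 14, 5 of 13, 4 of 13 and 7 of 13 tested were lower in clone 2 at 0, 2, 4 and 8 h. At 0 and 4 h this is near the shares of 22.3% and 30.8% over all genes. Ilf2 was the 1 member lower in both clones at 2, 4 and 8 h, by -0.43 to -0.15. The second editing enzyme gene, Adarb1, had 13.1 ± 1.44 CPM in wild type, 14.7 ± 0.873 in clone 2 and 13.5 ± 2.79 in clone 4. Of 9 genes that remove double-stranded or self RNA and DNA, 2 to 4 were higher in clone 2 and 1 to 2 in clone 4, and of 6 cytosolic DNA sensing genes with a row, Ifi204 was higher in both clones at all of 2, 4 and 8 h.

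The reference panel of 11 interferon-stimulated genes (Usp18, Ifit1, Ifit3, Isg15, Rsad2, Ifi44, Oasl2, Bst2, Stat2, Irf9 and Irf7, of which Oasl2 and Irf7 are also in lists above) was higher for 11 of 11 genes in both clones at each of the 4 times. In the pooled fit Ifi44 at 2 and 4 h, Ifit3 at 4 and 8 h and Rsad2 at 8 h missed the low-count filter. With 3 groups they entered the test through the knockout libraries, where they were higher, so their calls there are no separate support. Ifi44 had 8 counts over all wild-type libraries. The panel was put together with earlier results of these libraries known, so it is no independent evidence of its direction. Its median log2 difference was 2.17, 2.48, 2.24 and 3.17 in clone 2 and 2.77, 3.66, 2.52 and 2.68 in clone 4. Usp18 rose from 0.712 ± 0.438 CPM in wild type to 13.5 ± 5.63 in clone 2 and 13.7 ± 3.58 in clone 4, and Isg15 from 0.580 ± 0.339 to 4.88 ± 0.876 and 9.33 ± 3.55 CPM. Ifit1 had 0.892 ± 0.504, 9.12 ± 2.26 and 18.7 ± 5.11 CPM, an order over the 3 lines that Ifih1 and Isg15 also had, whereas Stat2 (26.6 ± 11.6, 67.6 ± 24.8 and 35.1 ± 14.5 CPM) had its highest mean in clone 2, as Adar had.

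Interferon ligand genes were almost without counts. None of the 21 type I, II and III interferon genes in the tables had enough counts to be tested. Ifnb1 had 4 counts over the 31 libraries, 1 in wild type, 1 in clone 2 and 2 in clone 4. Ifnk had 33 counts, of which 12 were in wild type, 10 in clone 2 and 11 in clone 4, and each of the others had at most 7 over all libraries. With a median of 8.15 M counts per library, a difference between the lines was not detectable for these genes at this depth.

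Markers of other cell types also moved with the groups. The summed level of 14 fibroblast markers, the kind of cell used as a feeder layer, was 911 to 1530 CPM in wild type, 673 to 975 CPM in clone 2 and 2679 to 3284 CPM in clone 4. In clone 2 at 0 h 10 of the 14 were higher than wild type and 3 lower, where 22.9% and 22.3% of all genes were. In clone 4 all fibroblast markers except Col3a1 (238 against 314 CPM) had higher means over all times than in wild type. Col1a1 had mean levels of 512, 350 and 1290 CPM in wild type, clone 2 and clone 4. Col3a1 (45.2 against 314 CPM) and Loxl1 (17.5 against 28.6 CPM) also had lower means in clone 2 than in wild type. All other fibroblast markers had higher means in clone 2, such as Fbln2 (184 against 66.0 CPM) and Thy1 (18.4 against 7.03 CPM). The sum of 14 primitive and parietal endoderm markers was 18103 to 22092 CPM in wild type, 70006 to 80807 CPM in clone 2 and 26477 to 35733 CPM in clone 4. The 10 stem cell markers summed to 547 to 741, 1081 to 1275 and 669 to 1019 CPM. They did not move as a set. Sox2 (53.0 against 66.8 CPM), Esrrb (36.3 against 46.6 CPM) and Dppa4 (17.5 against 25.1 CPM) had lower means in clone 2 than in wild type. All other stem cell markers had higher means there, such as Klf4 (344 against 123 CPM) and Dppa5a (319 against 141 CPM). The sum of 8 myeloid markers was 8.06 to 17.0, 26.7 to 42.2 and 12 to 19.7 CPM, with the defining markers near 0: Itgam had 0 counts in wild type and clone 2 and 1 in clone 4, and Ptprc had 4, 4 and 3. The fibroblast sum was highest in clone 4, and the endoderm sum was highest in clone 2. In clone 2 the fibroblast sum lay below the wild-type range at 0, 4 and 8 h and overlapped it at 2 h. Col1a1 and Col3a1 lead that sum in wild type, so it does not show whether clone 2 held more or fewer fibroblasts. The part of cell types in the differences between the lines was not tested.

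For the 4 genes called in both clones at all times, the genes of nearest pattern were sought over the 31 libraries, among 10987 genes with a mean of at least 5 CPM, by the root mean square difference of log2 levels after each gene's mean was subtracted. For Ddx58 they were Aga (0.28), Fam129a (0.30) and Parp9 (0.31), against a root mean square of 0.78 of Ddx58 about its own mean. For Ifih1 they were Mgll (0.42), Irgm1 (0.45) and Gm13394 (0.49), against 1.27. For Eif2ak2 they were Adam10 (0.18), F2r (0.18) and Ostf1 (0.19), against 0.53, and for Tlr3 they were Tbc1d8b (0.29), Sec11c (0.29) and Adam10 (0.29), against 0.68. Parp9 and Irgm1 are known interferon-stimulated genes. Within the set, Ddx58 and Eif2ak2 lay 0.37 apart and Ifih1 and Mavs 1.43 apart.

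The RNA immunoprecipitation part of the study left 2 lists of gene symbols without values by the authors, which carry the names CNT vs RA and 2I vs RA. The files say neither how genes were chosen nor in which direction they differ. None of the 7 genes is in the first list, of 2170 symbols, or in the second, of 2502 symbols. Each list holds a small part of the 51410 genes in the count tables, so the absence of 7 genes is no result about them. Whether CAPRIN1 binds their RNA was not tested.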

How the data were processed

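Bulk RNA-seq of 31 libraries was analysed from 4 tables, 1 per time, of raw counts per gene, which the authors deposited. Per the file headers, another column of each table, of a different kind than counts, gives gene length, and the 2 other deposited files list gene symbols without values. Each table has 51520 lines, and 110 of them, which duplicate another line exactly, were left out. Ensembl identifiers were matched to symbols of the reference. Per the labels' protocols, libraries were made with the KAPA stranded mRNA kit. STAR 2.4.0.1, FastQC 0.11.9, Cuffdiff, Cufflinks, TopHat and DESeq2, and the builds mm10 and GRCm38, are named without roles per the submitters' processing notes. What counted the reads, with which annotation and strand setting, is not given in the sources used here.

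From the counts, levels were computed as CPM scaled by TMM over all 31 libraries. Differences were tested on all genes in R 4.3.3 with edgeR 4.0.16 (filterByExpr, TMM, robust quasi-likelihood fit and F test) and called at a Benjamini-Hochberg FDR under 0.05; the error is the standard error implied by the F statistic. Both clones pooled were compared with wild type at each time in a fit with 2 groups, and each clone in a fit with 3 groups. Times were compared in a joint fit of 12 line and time groups (19 residual degrees of freedom). Clones were kept apart there so that their difference stayed out of the error. Precision follows depth, from 3.46 to 31.6 M counts (M, mega-counts) per library. The fits were tested on simulated counts: of 200 genes changed by a log2 of 1 at 0 h, 94.5% were recovered for clone 2 and 74% for clone 4, which has 1 library there. For 8 h against 0 h in clone 4, 52.5% were recovered, and of the genes called for pooled knockout at 0 h 8.96% were false. The simulated counts had the same dispersion for every gene and no split of the wild-type replicates, and only well-counted genes were changed. These rates were therefore not measured for genes on few counts or for libraries split as here. The 7 genes and all lists were chosen with earlier results of these data known. The text names the 7 genes, Caprin1, list genes called in the same direction in both clones at 2, 4 and 8 h with a mean of at least 1 CPM, a few pathway genes (Ifnb1, Irf3, Irf7, Tbk1, Trim25, Zbp1, Adarb1, the interferon-stimulated panel) and the 3 genes of nearest pattern; other names in the cell type paragraph were chosen after their values were seen. Alternatives were RLE scaling, DESeq2 1.42.0, no filter on low counts, a replicate block, other groupings of the fit and each library left out; the wild-type pairs taken alone were added after seeing the data. Of the list genes, 1 (Mb21d1) has no row and was not used here, and a few others are not reported here and were left out of the list counts.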

Additional observations from a re-analysis of the deposited data

Results flagged for a closer look

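Within the wild-type groups of 4 libraries, 3 of the 28 groups tested (7 genes at 4 times) had a library whose gap to the nearest other exceeded Dixon's 95% critical value for the share of the group's range, where chance gives about 1 in 20. Ddx58 was 16.0 CPM in replicate 1 at 2 h, against 13.96 to 14.3 CPM in the others. Dhx58 was 0.932 CPM in replicate 1 at 8 h, against 0.626 to 0.653 CPM. Adar was 54.9 CPM in replicate 2 at 0 h, against 42.0 to 44.1 CPM.

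The clones differed from each other in edgeR's test of the difference for 9 gene and time combinations, given here as clone 4 minus clone 2 on the log2 scale. Ifih1 was higher in clone 4 at all 4 times, by 0.89 (FDR = 0.0252), 0.79 (FDR = 0.00154), 0.79 (FDR = 0.000882) and 1.10 (FDR = 1.03e-05). Ddx58 was higher at 2 h (0.36, FDR = 0.00337) and lower at 8 h (-0.48, FDR = 0.00648). Eif2ak2 was lower at 4 h (-0.28, FDR = 0.0152) and at 8 h (-0.43, FDR = 1.59e-06), and Adar was lower at 8 h (-0.65, FDR = 2.07e-10). The change of Eif2ak2 from 0 to 8 h differed between clone 4 and wild type by -0.61 (FDR = 0.0431).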

How the results depend on the processing

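Replicate numbers did not pair the libraries: deviations of same-numbered libraries correlated above 0.1 in 12 of 42 pairs between times (median 0.031) and in 4 of 20 pairs between lines (median 0.041). With the replicate block, the number of the 7 genes called for pooled knockout against wild type was 0 at 0, 2, 4 and 8 h (edgeR; 5 without the block, with unadjusted p under 0.05 for 4609 of all genes at 0 h and 1708 at 8 h), while 4 to 6 were called in each clone at each time. The block also gave 2 genes for clone 4 against clone 2 at 0 h, 1 for the difference in change of clone 2 and 0 for that of clone 4 (from 1, 0 and 1). Pooled knockout against wild type gave 0 at 0 h with wild-type replicates 3 and 4 only, and 0 at 8 h with either pair only, which leaves fewer wild-type libraries. Clone 4 against clone 2 gave 0, 1 and 1 at 0, 2 and 4 h with DESeq2 and 2 at 0 h with wild-type replicates 3 and 4 only. With clones pooled into 8 groups, wild type gave 1 and 2 for 8 h against 0 h and 2 h, and the change of clone 2 beside wild type gave 1 with RLE scaling and 1 with no filter. The causes were not tested. RLE scaling kept all 87 calls of single genes, and DESeq2 ended 10.

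Leaving out each library in turn, the counts ranged from 4 to 5, 5 to 5, 4 to 5 and 3 to 5 for pooled knockout at 0, 2, 4 and 8 h, from 5 to 6, 5 to 5, 5 to 5 and 6 to 7 for clone 2, and from 4 to 5, 4 to 5, 4 to 5 and 4 to 6 for clone 4. For clone 4 against clone 2 they ranged from 0 to 1, 0 to 2, 1 to 2 and 3 to 4. For 8 h against 0 h they ranged from 1 to 4 in wild type, 1 to 1 in clone 2 and 1 to 1 in clone 4, and for 8 h against 2 h from 2 to 4, 2 to 3 and 1 to 2. For the differences in change they ranged from 0 to 2 in clone 2 and 0 to 2 in clone 4.

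Of single genes, alternatives were run for the 87 calls and for the 14 comparisons of a clone with wild type that were not called; among these, signs turned for Mavs and Dhx58, in comparisons that were not called. With the block Mavs became -0.090 at 0 h and -0.049 at 2 h in clone 4 and -0.012 at 2 h in clone 2, with wild-type replicates 1 and 2 only it became -0.038 in clone 4 at 0 h, and without the filter 0.0033 in clone 4 at 4 h. Without 1 library at a time, Mavs ranged from -0.0022 to 0.14 at 0 h, -0.022 to 0.16 at 2 h and -0.18 to 0.11 at 4 h in clone 4, and from -0.021 to 0.27 at 2 h and -0.086 to 0.011 at 4 h in clone 2, and Dhx58 from -0.28 to 0.076 at 2 h in clone 2. Low counts limit Ifih1, Tlr3 and Dhx58 in wild type and the interferon ligands throughout.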
